A study of Mus musculus with 9 samples.

Results

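The comparison described here set 3 arrays of low-DOX P3 GBM tumors against 3 arrays of OPC lesions, 6 of the 9 arrays of the series, chosen by their titles. The study used a mouse model of glioblastoma in which adult mice received, in the striatum, a lentivirus that carries constitutive Cre and a doxycycline (DOX) inducible human PDGF-A cDNA. Total RNA of flash frozen lesions was hybridised to Affymetrix mouse 2.0 ST arrays, and the series calls the 3 arrays of each group biological replicates. All 22180 genes with a probe set that names only that gene were measured in all 9 arrays. The other 3 arrays, of high-DOX P3 tumors, entered the estimate of the spread and are given beside the results.

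P3 low-DOX tumors carried the genotype hPDGF-A;hPDGFRα;p53lox and came from mice on a diet with 25 mg/kg DOX. P3 high-DOX tumors had the same genotype and, by the labels, a 600 mg/kg diet. The study's text gives a different dose for the high diet, and the labels' dose is used here. The labels of the OPC lesions give hPDGFRα;p53 and the 600 mg/kg diet, and name oligodendrocyte precursor cells as their cell type, whereas the study describes OPC lesions as PDGF-A driven proliferations in mice with conditional p53 alleles and without the human receptor. The human receptor cDNA sits behind a CAG promoter and a floxed stop cassette at the Col1α1 locus, so its expression followed Cre and not the regulation of the mouse gene. The study also reports wild type p53 expression in cells of the OPC lesions, and loss of p53 in cultures of P3 tumors. Transgenes, lesion type, reported p53 status and DOX dose all differed between the groups compared, and their parts cannot be told apart. The arrays carry mouse probe sets, and the human ligand and receptor were not measured separately here. The study took human PDGF-A mRNA levels of P3 tumors from its microarray data. Whether the mouse Pdgfa and Pdgfra probe sets also read the human transcripts was not tested.

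PDGF-A is a ligand of the receptor tyrosine kinase PDGFRα, which drives division of oligodendrocyte precursors through the MAPK and PI3K pathways. Oligodendrocyte precursors mature through newly formed oligodendrocytes into myelinating cells. Gliomas also hold host cells, among them neurons of the invaded brain, resident microglia, macrophages that come from blood or the brain borders, vessel cells and fibroblasts. In whole tissue RNA, fewer cells of a type and less RNA per cell cannot be told apart.

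Array medians of the log2 values, taken over all probe sets with or without a gene name, were between 4.55 and 4.83. The markers of the oligodendrocyte lineage were abundant in both groups. Olig2, a transcription factor of the lineage, read 10.95, 11.78 and 12.01 in the OPC lesions and 11.23, 11.39 and 10.28 in the low-DOX tumors. Lineage markers were thus present where the labels name precursor cells. Rbfox3, a nuclear protein of mature neurons, read 10.14, 6.72 and 8.25 in the same lesions, so the RNA of at least OPC lesions 1 and 3 was not that of precursor cells alone. OPC lesion 2 stood apart. It was the only array of the 9 with a high value of Xist, the RNA of the inactive X chromosome (9.38, with the others between 3.19 and 3.65), and a low value of Kdm5d, a gene of the Y chromosome (3.40, with the others between 5.87 and 6.81). The labels give no sex. This lesion also had the lowest neuron list mean and the highest means of its group in the immune lists other than the neutrophil list, and values without it are given where it decides a result.

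No gene passed the threshold (limma, Benjamini-Hochberg adjusted p under 0.05 over all genes, 0 of 22180, 0%), and the smallest adjusted p was 0.108. At an unadjusted p under 0.05 there were 977 genes higher (4.40%) and 1201 genes lower (5.41%) in the low-DOX tumors. All 3 tumors lay above all 3 OPC lesions in 1407 genes (6.34% of those measured) and below them in 1756 (7.92%). With 3 arrays against 3, an exact two-sided permutation test of a single value cannot go below 0.1. The median difference of all genes was −0.0034 on the log2 scale. If each array was centred on its own median over all probe sets instead, the median difference of the genes became −0.18. The split at an unadjusted p under 0.05 (limma) then became 345 higher and 3089 lower. With quantile normalization the median difference was 0.0056 and the split 1178 higher and 920 lower. The direction of small differences thus depends on the scaling. In what follows a difference is the mean log2 value of the low-DOX tumors minus that of the OPC lesions, ± its standard error.

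The 12 genes with the smallest p among those higher in low-DOX tumors included a set of macrophage surface genes. Stab1, the scavenger receptor stabilin-1, read 8.92, 8.15 and 8.83 in the low-DOX tumors and 5.51, 6.31 and 5.89 in the OPC lesions. The groups were separated by 1.85 log2 units, and the high-DOX tumors, at 5.83, 5.72 and 6.31, lay among the OPC lesions. The difference was 2.73 ± 0.28, or 6.66-fold, with an adjusted p of 0.117 (limma), and remained between 2.54 and 2.97 when any array was left out. Mrc1, the mannose receptor of macrophages at the brain borders, read 8.22, 7.74 and 9.04 against 4.94, 6.09 and 4.70. Here too every low-DOX tumor was above every OPC lesion, with a difference of 3.09 ± 0.42 and an adjusted p of 0.149 (limma).

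Ms4a7, a membrane protein of macrophages that microglia largely lack in the healthy brain, read 9.34, 8.54 and 8.84 in the low-DOX tumors. In the OPC lesions it read 3.58, 5.41 and 4.66 and in the high-DOX tumors 3.82, 3.61 and 5.2. This was the largest difference among the 12 genes, 4.36 ± 0.55 (adjusted p of 0.132, limma). Its neighbour Ms4a14, with no gene between them on chromosome 19 in GRCm38.p6, read 5.47, 5.23 and 6.75 against 2.88, 3.19 and 2.97, a difference of 2.80 ± 0.35. The OPC values of Ms4a14 lay well under the array medians and were not shown to be above background, for which no detection calls were used here. Leaving out low-DOX tumor 3 brought Ms4a14 past the threshold (2.34, adjusted p of 0.0208, limma), but leaving out tumor 1 or tumor 2 did not.

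The other 8 genes of this set have varied roles. Bfsp2, a beaded filament protein known from the eye lens, read 9.15, 9.48 and 8.24 in the low-DOX tumors and 5.40, 6.27 and 5.41 in the OPC lesions. Its difference was 3.26 ± 0.44, and the high-DOX tumors lay between at 6.19, 6.06 and 7.23. Mitf, a transcription factor of melanocytes and of cells of the macrophage line, was higher by 1.14 ± 0.16, from 6.29 to 6.41 in the OPC lesions and from 7.22 to 7.82 in the low-DOX tumors. Traf1, an adaptor of tumor necrosis factor receptors, was higher by 1.73 ± 0.28. Sned1, a matrix protein, was higher by 1.67 ± 0.21, and Atoh8, a basic helix-loop-helix factor, by 1.29 ± 0.16. The remaining members were Arhgap23 (1.43 ± 0.22), Clec2i, a C-type lectin (0.83 ± 0.13), and Als2cl (0.78 ± 0.12). In the OPC lesions Als2cl read from 3.81 to 4.01, Traf1 from 4.10 to 4.64, Clec2i from 4.45 to 4.70 and Sned1 from 4.52 to 4.74. These values lay under or near the array medians and were not shown to be above background. Adjusted p over these 12 genes was between 0.117 and 0.259 (limma), so none passed.

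**Figure D1:**
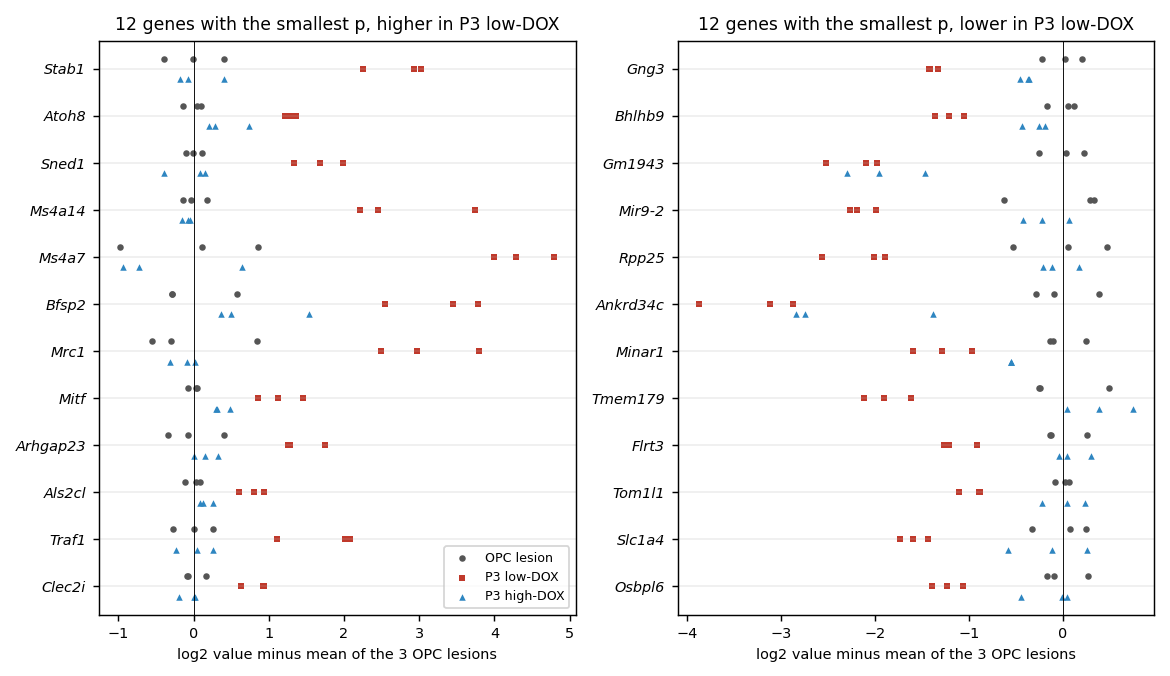
Each row is a gene, and each point an array, as its log2 value minus the mean of the 3 OPC lesions (circles, OPC lesion; squares, P3 low-DOX; triangles, P3 high-DOX). The 24 genes with the smallest p are shown, 12 higher and 12 lower; in all 24 the low-DOX and OPC arrays do not overlap, which follows from how they were ranked, and in 22 the high-DOX mean is nearer to that of the OPC lesions.

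Among the 12 lower genes, the smallest p of the comparison belonged to Gng3, a G protein gamma subunit of neurons. It read 11.08, 10.65 and 10.90 in the OPC lesions and 9.55, 9.46 and 9.45 in the low-DOX tumors. The 3 low-DOX values were close together, and the high-DOX tumors were between the groups at 10.42, 10.52 and 10.51. The difference was −1.39 ± 0.13 (adjusted p of 0.108, limma), and without OPC lesion 2 it was −1.50 with an adjusted p of 0.0274. Without OPC lesion 1 or OPC lesion 3 instead, no gene passed (smallest adjusted p of 0.355 and 0.668, limma). Bhlhb9, an X-linked gene of a brain protein, was lower by 1.21, from 8.02, 8.30 and 8.24 to 6.97, 7.14 and 6.82. The low-DOX values were below all 6 others, since the high-DOX tumors lay between 7.75 and 8.0.

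Several of the lower genes encode proteins of transport, adhesion or RNA processing. Slc1a4, a transporter of neutral amino acids, was lower by 1.59, from 8.63, 9.20 and 9.02 to 7.51, 7.35 and 7.21. Rpp25, a subunit of ribonuclease P, read 7.59, 7.0 and 8.0 in the OPC lesions and 5.64, 5.52 and 4.97 in the low-DOX tumors. Its difference was −2.15 ± 0.28, and the high-DOX tumors lay among the OPC lesions. Tmem179 was lower by 1.88, Flrt3, an adhesion protein of axon guidance and synapses, by 1.13, Osbpl6, an oxysterol binding protein relative, by 1.23, and Tom1l1, an adaptor of Src kinases, by 0.96. In these 4 genes too all low-DOX tumors were below all OPC lesions, and adjusted p was between 0.151 and 0.182 (limma).

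Ankrd34c, Minar1 and Gm1943 read lower than in all OPC lesions in both P3 groups, as did Gng3 and Bhlhb9, and the adjusted p of each was 1.0 (limma) for the high-DOX tumors. Ankrd34c read 7.36, 7.56 and 8.03 in the OPC lesions, 3.78, 4.54 and 4.78 in the low-DOX tumors and 4.81, 6.27 and 4.91 in the high-DOX tumors. Both P3 groups lay below all OPC lesions, by −3.28 ± 0.43 at low DOX (adjusted p of 0.136, limma) and by −2.32 at high DOX. Minar1, a Notch2 binding protein gene separated from Ankrd34c only by Tmed3 on chromosome 9 in GRCm38.p6, read 5.75, 5.79 and 6.13 against 4.30, 4.93 and 4.61. It was lower by 1.28 in the low-DOX tumors, and all 3 high-DOX values were identical at 5.3435. The reason for this tie was not tested. Gm1943, listed as a predicted gene, read 7.5, 7.97 and 7.79 in the OPC lesions, 5.77, 5.23 and 5.65 in the low-DOX tumors and 5.45, 5.79 and 6.28 in the high-DOX tumors, with differences of −2.20 ± 0.24 and −1.91. The 2 comparisons share the OPC arrays. Between the P3 groups no gene passed the threshold (limma, 0 of 22180, 0%; smallest adjusted p of 0.186), so no gene was shown to differ from the OPC lesions by a different amount in the 2 P3 groups.

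The microRNA locus Mir9-2 was also among the 12 lower genes. miR-9 is a microRNA of the nervous system that is made in neural progenitors, and its mature forms can come from 3 genomic loci. The hairpins are shown because the array has probe sets named for each of these loci although their mature products are the same. Whether the probe sets tell the loci apart was not tested. Capitals mark the 5′ and 3′ mature arms, from RefSeq on GRCm38.p6, and the mature arms were identical at the 3 loci.
Mir9-2 (chr13:83738814-83738885, plus strand): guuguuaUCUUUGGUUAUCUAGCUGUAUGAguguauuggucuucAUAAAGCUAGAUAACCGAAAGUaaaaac
Mir9-1 (chr3:88215598-88215686, plus strand): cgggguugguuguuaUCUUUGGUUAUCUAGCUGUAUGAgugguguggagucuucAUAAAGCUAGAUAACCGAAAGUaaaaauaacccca
Mir9-3 (chr7:79505264-79505353, plus strand): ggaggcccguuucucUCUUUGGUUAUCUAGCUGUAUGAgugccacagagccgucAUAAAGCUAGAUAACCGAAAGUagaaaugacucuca
In the mature forms below the capitals mark the seed, bases 2 to 8, the part that pairs with target RNAs.
mmu-miR-9-5p: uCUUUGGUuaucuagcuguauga
mmu-miR-9-3p: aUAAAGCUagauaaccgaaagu

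The Mir9-2 probe set read 6.77, 5.81 and 6.72 in the OPC lesions, 4.45, 4.25 and 4.17 in the low-DOX tumors and 6.01, 6.21 and 6.50 in the high-DOX tumors. Only the low-DOX tumors were low, all under the array medians, and the difference was −2.14 ± 0.27 (adjusted p of 0.132, limma). Without OPC lesion 2 it was −2.46 with an adjusted p of 0.0257 (limma), but it did not pass without OPC lesion 1 or OPC lesion 3. Mir9-1 read 6.95, 6.16 and 6.53 in the OPC lesions and 5.83, 7.24 and 6.47 in the low-DOX tumors, a difference of −0.03 ± 0.52 with overlapping groups. Mir9-3 differed by 0.19 ± 0.24, also with overlap. C130071C03Rik, the long noncoding RNA gene whose annotated span in RefSeq holds the Mir9-2 hairpin, was lower by 0.94 ± 0.44, at 7.29, 6.16 and 7.06 against 5.0, 6.64 and 6.04, with overlapping groups. These probe sets are named for a locus, and were not shown to tell the loci apart or to measure mature miR-9.

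**Figure D2:**
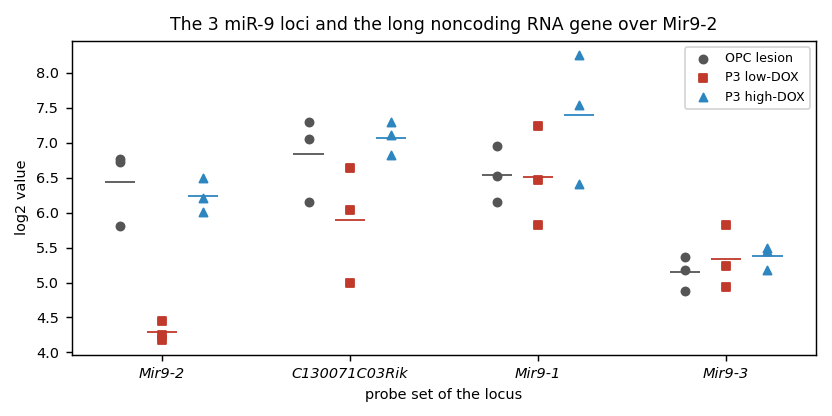
Log2 values of the probe sets of the 3 miR-9 loci and of C130071C03Rik in each array (points) with group means (lines). The 3 low-DOX values of Mir9-2 lie between 4.17 and 4.45, below all other arrays at that locus, while the groups overlap at Mir9-1 and Mir9-3.

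The 41 gene lists were next described by their counts and medians, beside the shares over all genes given above. No member of any list passed the threshold. Lists of neurons had the most negative medians. None of the 18 measured neuron genes, 13 striatal neuron genes or 17 presynaptic vesicle genes was higher in the low-DOX tumors, and the medians were −1.84, −1.31 and −1.61. All 3 low-DOX tumors lay below all OPC lesions in 3, 5 and 7 members of these lists, respectively.

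The largest of these differences belonged to Sv2b, a synaptic vesicle glycoprotein. It read 11.26, 5.19 and 9.37 in the OPC lesions and 4.80, 3.99 and 4.49 in the low-DOX tumors, a difference of −4.18 ± 1.75 (adjusted p of 0.501, limma). The spread among the OPC lesions was wider than the difference between the groups, with OPC lesion 2 close to the tumors. Snap25, a fusion protein of synaptic vesicles, had the same high and low lesions, at 12.94, 7.77 and 11.88 against 8.0, 6.78 and 6.67. Slc17a7, the vesicular glutamate transporter of cortical neurons, read 11.66, 5.71 and 9.90 against 5.79, 4.9 and 5.27, and Cplx1, the vesicle release regulator complexin-1, 10.82, 6.05 and 9.19 against 5.87, 5.37 and 5.14.

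Striatal markers were lower by less. Drd1, the dopamine receptor of direct pathway neurons, read 6.44, 4.62 and 4.69 in the OPC lesions and 3.71, 3.63 and 3.62 in the low-DOX tumors, a difference of −1.60 ± 0.85 without overlap. Penk, the proenkephalin gene, differed by −2.12 ± 1.80 with overlap. The neuron list mean was 9.77, 5.88 and 8.25 in the 3 OPC lesions, 6.10, 5.29 and 6.26 in the low-DOX tumors and 7.83, 9.77 and 6.37 in the high-DOX tumors. OPC lesion 2 was within the range of the low-DOX tumors and the high-DOX tumors spanned nearly the whole scale. Without OPC lesion 1 the median of the striatal list was −0.36 and that of the neuron list −0.83, and without OPC lesion 2 the neuron median was −3.05. High-DOX tumors minus OPC lesions gave medians of 0.27, 0.46 and 0.07 for the 3 lists.

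**Figure D3:**
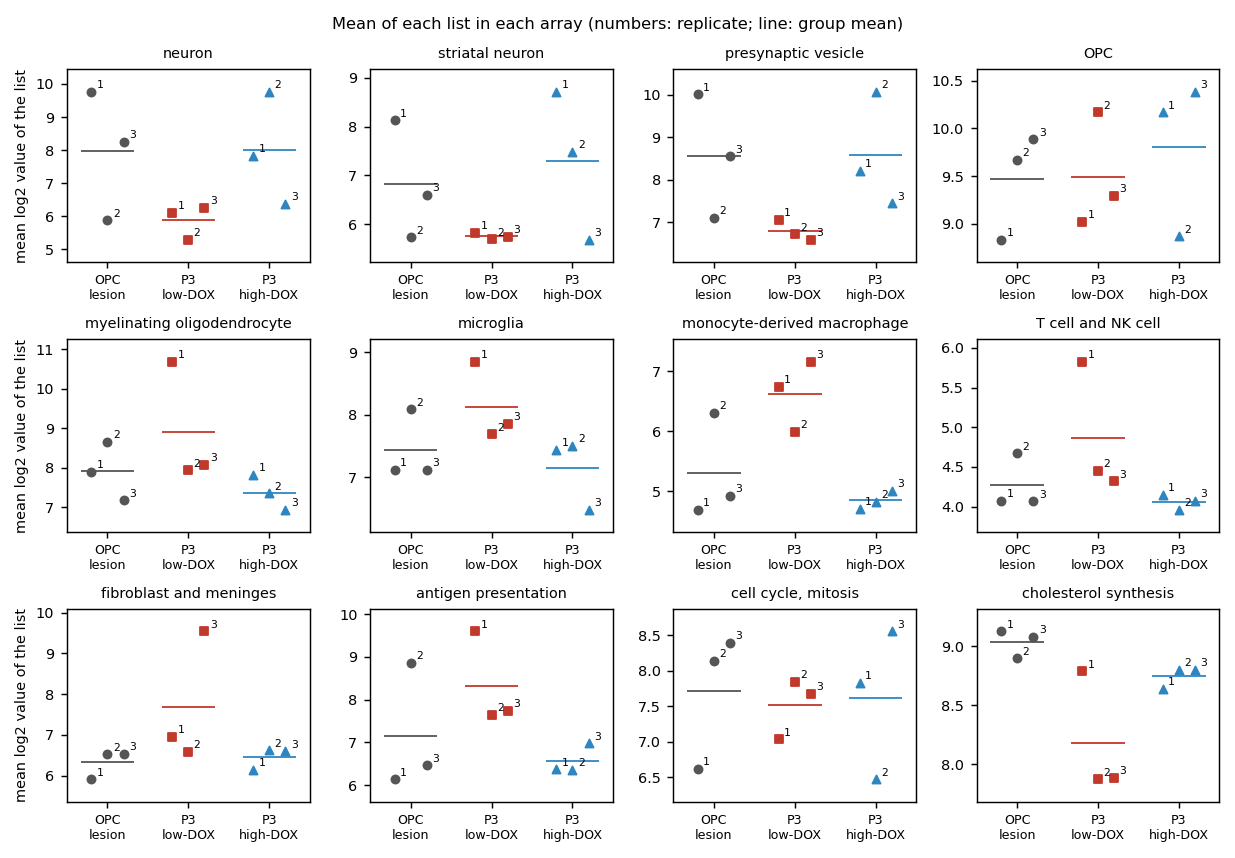
Mean log2 value of 12 gene lists in each array, with replicate numbers beside the points and a line at each group mean. In the panel of the neuron list OPC lesion 2 sits among the low-DOX tumors. Low-DOX tumor 1 is highest in myelin, antigen presentation and T cell genes, and low-DOX tumor 3 is highest in fibroblast genes. The cholesterol synthesis means of all low-DOX tumors are below those of all OPC lesions.

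Genes of the oligodendrocyte lineage were described by stage, with no test between stages. The OPC list had a median of −0.24, with 9 of 20 members above 0, and it was 0.19 without low-DOX tumor 1 and −0.74 without low-DOX tumor 2. Pdgfra, the mouse receptor gene and the defining marker of precursors, read 11.56, 11.58 and 12.93 in the OPC lesions and 9.90, 12.60 and 11.02 in the low-DOX tumors, a difference of −0.85 ± 0.74 (adjusted p of 0.709, limma). The groups overlapped, and low-DOX tumor 1 was the lowest of the 9 arrays. Whether this probe set also reads the human receptor transcript was not tested. Cspg4, the NG2 proteoglycan of precursors and pericytes, read 7.99, 8.60 and 9.05 against 6.65, 8.88 and 7.55, also with overlap. Lnx1, a ubiquitin ligase, was lower by 1.54 ± 0.58, with overlap, and Dcn, the matrix proteoglycan decorin, which fibroblasts also make and which is in the fibroblast list too, was higher by 2.32 ± 0.95.

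C1ql1, a secreted C1q-like protein made by precursors, went the other way from Pdgfra. It read 7.24, 8.49 and 7.66 in the OPC lesions, 9.73, 10.27 and 9.67 in the low-DOX tumors and 10.03, 8.04 and 9.84 in the high-DOX tumors. Low-DOX tumors lay wholly above the OPC lesions, by 2.09 ± 0.55 (adjusted p of 0.436, limma), and the high-DOX tumors by 1.51 with overlap. It was the only member of the OPC list without overlap between the 2 groups.

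Genes of later stages had positive medians. Of the 12 newly formed oligodendrocyte genes 11 were above 0 (median 0.80), and of the 17 measured myelinating genes all 17 were (median 0.97). Myrf, the transcription factor that turns on myelin genes, read 7.72, 9.997 and 7.07 in the OPC lesions and 10.92, 10.17 and 10.19 in the low-DOX tumors. These groups did not overlap, although OPC lesion 2 came within 0.18 of the lowest tumor, and the difference was 2.17 ± 0.71 (adjusted p of 0.459, limma). Enpp6, a choline phosphodiesterase of newly formed oligodendrocytes, was at 6.23, 10.92 and 6.31 against 10.81, 10.27 and 9.33, so that OPC lesion 2 was the highest of the 6. Fa2h, which makes hydroxylated myelin lipids, was higher by 1.66 ± 0.70 and Mag, a myelin adhesion protein, by 1.32 ± 1.0, with overlap in both. The myelin list mean was 10.69 in low-DOX tumor 1 and 7.94 and 8.07 in tumors 2 and 3, against 7.89, 8.66 and 7.18 in the OPC lesions, and without low-DOX tumor 1 the list median was 0.27.

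Astrocyte genes had a median of −0.30, with 6 of 20 above 0. Aldh1l1, a folate enzyme and general astrocyte marker, read 7.56, 9.02 and 6.76 in the OPC lesions and 5.56, 5.73 and 5.21 in the low-DOX tumors, a difference of −2.28 ± 0.69 (adjusted p of 0.443, limma). The groups did not overlap, whereas the high-DOX tumors, at 6.97, 7.45 and 5.21, overlapped both. Gfap, the filament of reactive astrocytes, read 8.80, 10.15 and 8.85 against 10.21, 9.13 and 8.41 and differed by −0.01 ± 0.82. Aldoc, a glycolytic enzyme of astrocytes, differed by −1.11 ± 0.72 and Cbs, cystathionine beta-synthase, by −1.13 ± 0.43, both with overlap. The neural stem and progenitor list had a median of −0.01. In it Id3, an inhibitor of helix-loop-helix factors that BMP signaling induces, read 7.18, 8.32 and 7.25 against 8.78, 9.06 and 9.11, higher by 1.40 ± 0.29 without overlap, and without OPC lesion 2 it was among the 4 genes that passed.

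Immune lists were higher in the low-DOX tumors on average, with OPC lesion 2 as the exception among the lesions. The median was 1.12 for 18 microglia genes, 0.97 for 12 genes of monocyte-derived macrophages and 0.62 for 18 scavenger and lysosome genes. The last of these was 0.23 without OPC lesion 1 and 1.07 without OPC lesion 2. Of the macrophage genes, 5 lay wholly above the OPC lesions, and 5 were at an unadjusted p under 0.05. Beside Ms4a7 and Mrc1 these included Lyz2, the lysozyme of myeloid cells, at 7.29, 10.24 and 8.79 in the OPC lesions and 12.12, 11.28 and 12.17 in the low-DOX tumors (3.09 ± 0.70, adjusted p of 0.436, limma). Others of the list were not higher. Cd163, a hemoglobin scavenger receptor, differed by −0.07, and Arg1, the arginase of alternatively activated macrophages, by −0.61, with single high values of 9.996 in OPC lesion 2 and 8.33 in low-DOX tumor 3 and all other arrays between 4.57 and 4.99.

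Of the 18 microglia genes 14 were above 0 and 4 below. Trem2, a lipid sensing receptor, was higher by 1.59 ± 0.65, its adaptor Tyrobp by 1.33 ± 0.47, and Fcrls, an Fc receptor-like molecule of mouse microglia, by 1.36 ± 0.63. Aif1, which encodes the marker protein Iba1, read 5.51, 7.04 and 5.56 in the OPC lesions and 8.10, 6.91 and 6.61 in the low-DOX tumors. All 4 of these genes overlapped through OPC lesion 2 or, for Fcrls, through OPC lesion 3. Among the 4 lower members were P2ry12, a purine receptor, at −0.13 (0.13 without low-DOX tumor 2), Sall1, a transcription factor, at −0.71, and Siglech, a sialic acid binding lectin, at −0.99. Siglech was also lower without overlap. The microglia list mean was 7.12, 8.09 and 7.12 in the OPC lesions and 8.85, 7.68 and 7.85 in the low-DOX tumors.

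Antigen presentation genes had a median of 1.05 (0.40 without low-DOX tumor 1 and 1.87 without OPC lesion 2), and all 13 were above 0. H2-Eb1, a class II MHC beta chain, read 6.20, 6.46 and 6.02 in the OPC lesions, 10.60, 7.52 and 7.76 in the low-DOX tumors and 5.62, 6.44 and 7.19 in the high-DOX tumors. It was the only member without overlap, higher by 2.40 ± 0.79 (adjusted p of 0.46, limma). H2-Aa, a class II alpha chain, was at 4.91, 8.10 and 4.63 against 9.98, 7.24 and 8.21, and H2-Ab1 at 6.0, 12.04 and 7.72 against 12.47, 9.07 and 9.99. In these 2 genes OPC lesion 2 was above at least 1 tumor. The interferon response list had a median of 0.31 that was −0.31 without low-DOX tumor 1 and 1.47 without OPC lesion 2. Iigp1, an interferon-gamma induced GTPase, read 4.22, 9.75 and 4.53 against 9.96, 6.94 and 7.04, and OPC lesion 2 and low-DOX tumor 1 were the 2 high arrays.

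Lymphocyte genes were highest in 1 tumor. The T cell and NK cell list mean was 5.83 in low-DOX tumor 1 and 4.45 and 4.32 in the others, against 4.07, 4.67 and 4.07 in the OPC lesions, and without that tumor the list median of 0.57 was 0.04. Cd4, the coreceptor of helper T cells, read 8.21 in that tumor and between 4.74 and 5.61 in the other 5 arrays. Jchain, the joining chain of secreted antibodies, read 9.65 there and between 3.22 and 4.36 in the other 5. The neutrophil list differed by a median of 0.09, and its defining markers S100a8 and S100a9 by 0.25 and 0.30, with all values under the array medians.

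Signals between immune cells followed the same pattern. The chemokine and cytokine list had a median of 0.53, with 22 of 30 above 0. Tgfb1, a growth factor that restrains inflammation, read 6.73, 8.29 and 7.28 in the OPC lesions and 8.65, 8.86 and 9.58 in the low-DOX tumors, higher by 1.59 ± 0.40 without overlap (adjusted p of 0.436, limma). Cxcl9, a chemokine induced by interferon-gamma, read 4.56, 10.08 and 3.98 against 9.86, 7.79 and 7.89, with OPC lesion 2 the highest. Ccl8, a chemokine for monocytes and T cells, was higher by 1.95 ± 0.55 and Cxcl16, a chemokine and scavenger receptor, by 1.99 ± 0.78, with overlap in both. The complement list had a median of 0.39, which was 0.075 without low-DOX tumor 1 and 0.82 without OPC lesion 2. In it C3ar1, the receptor of the fragment C3a, was higher by 1.89 ± 0.80.

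Matrix and stromal lists were higher as well. Of 19 basement membrane and collagen genes all 19 were above 0 (median 1.09), and of 16 fibroblast and meninges genes 15 were (median 1.17). Col6a2, a collagen VI chain, read 6.37, 7.86 and 6.51 in the OPC lesions and 8.83, 7.88 and 9.22 in the low-DOX tumors, higher by 1.73 ± 0.46 (adjusted p of 0.436, limma). The groups were separated by only 0.013 because of OPC lesion 2. Col1a1, the chain of fibrillar collagen I, read 5.89, 6.88 and 7.18 against 7.53, 7.07 and 12.40. Low-DOX tumor 3 stood far above all others, and its fibroblast list mean was 9.54 against 6.95 and 6.58 in tumors 1 and 2. The human receptor transgene lies at the mouse Col1a1 locus, and whether it bears on the Col1a1 value of the P3 arrays was not tested.

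Plau, the urokinase protease, was higher by 2.49 ± 0.92, at 5.28, 7.66 and 6.0 against 8.47, 7.16 and 10.77. OPC lesion 2 was above 1 tumor. Plau is in the matrix protease list (median 0.61, and 0.02 without low-DOX tumor 3). It is also in the list of genes known from mesenchymal glioma (median 0.67, 28 of 31 above 0). The median of that list was 0.22 without OPC lesion 1 and 1.28 without OPC lesion 2. Also of the latter list, Runx1, a transcription factor of blood and mesenchymal cells, was higher by 2.19 ± 0.77 and Tgfbi, a matrix adhesion protein, by 1.84 ± 1.27, both with overlap. Pdgfrb, the PDGF receptor of pericytes and fibroblasts, read 7.80, 7.59 and 8.02 against 7.90, 8.89 and 10.10, a difference of 1.16 ± 0.56 (adjusted p of 0.531, limma). The endothelial list had a median of 0.42, and Cdh5, the cadherin of endothelial junctions, was higher by 1.08 ± 0.45 without overlap.

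**Figure D4:**
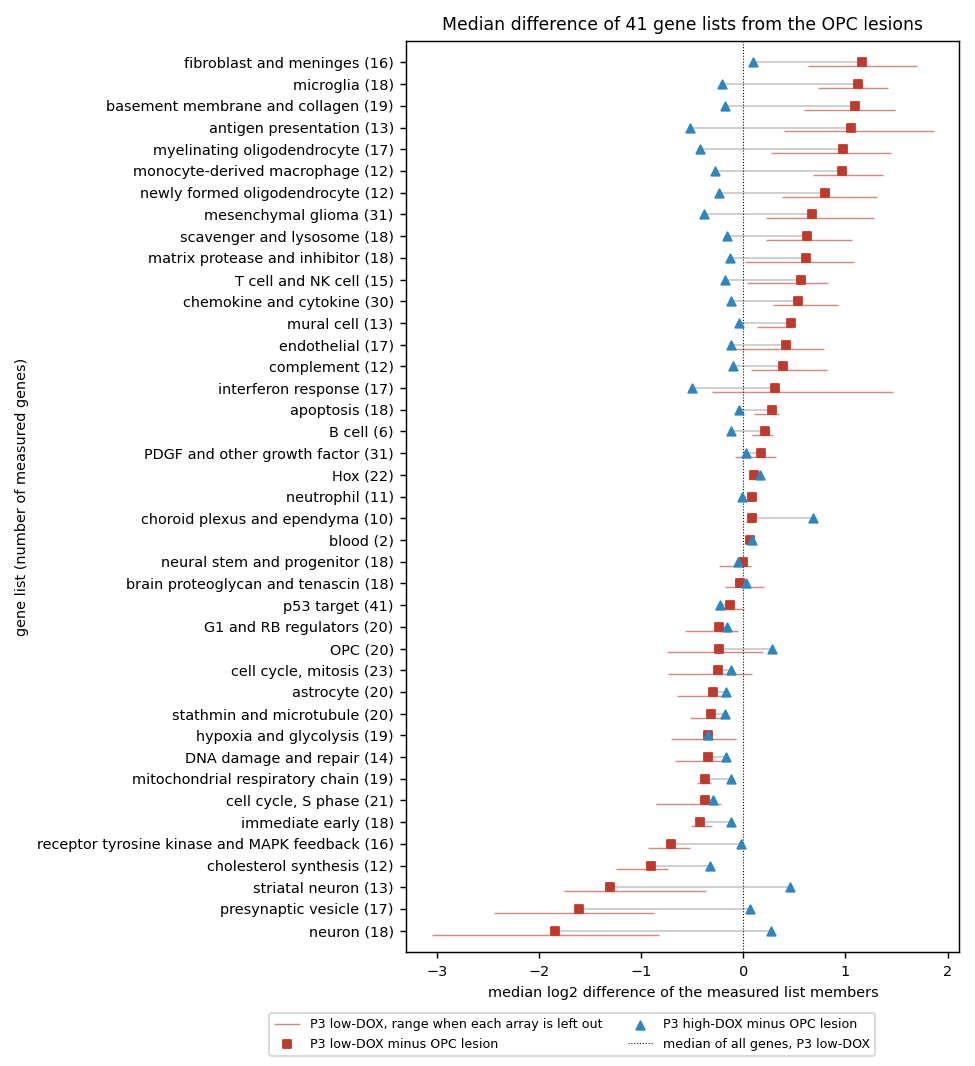
Median log2 difference from the OPC lesions of the measured members of each of 41 gene lists, for low-DOX tumors (squares) and high-DOX tumors (triangles), with the range of the low-DOX median when each array was left out in turn (thin lines) and the median of all genes (dotted). Low-DOX medians run from −1.84 for neuron genes to 1.17 for fibroblast and meninges genes; both sets of medians use the same 3 OPC lesions.

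The cholesterol synthesis list was lower throughout. None of its 12 measured genes was higher in the low-DOX tumors, the median was −0.91, and 10 of the 12 were at an unadjusted p under 0.05, while 7 lay wholly below the OPC lesions. Fdps, which makes farnesyl pyrophosphate, read 8.79, 8.73 and 8.48 in the OPC lesions, 8.14, 7.32 and 7.41 in the low-DOX tumors and 8.23, 8.17 and 8.24 in the high-DOX tumors. The low-DOX tumors were below all OPC lesions, by −1.04 ± 0.22 (adjusted p of 0.418, limma), and so were the high-DOX tumors, by −0.45. Fdft1, squalene synthase, read 10.06, 9.55 and 9.55 against 9.34, 8.08 and 8.29, a difference of −1.15 ± 0.35.

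Msmo1, a sterol demethylase, read 7.83, 7.65 and 7.67 in the OPC lesions and 7.40, 6.35 and 6.09 in the low-DOX tumors. As in the other genes of the list named here, low-DOX tumor 1 was nearest to the OPC lesions. This was the tumor with the highest myelin and lymphocyte values. The list mean was 8.79, 7.87 and 7.89 in the low-DOX tumors against 9.12, 8.90 and 9.08 in the OPC lesions. The smallest differences belonged to Srebf2, the transcription factor of the pathway, at −0.35 ± 0.17, and Sc5d, a sterol desaturase, at −0.49 ± 0.32. The list median was between −1.25 and −0.73 when any array was left out, and −0.33 for the high-DOX tumors minus the OPC lesions. Neurons and oligodendrocytes both make cholesterol, and whether the lower neuron lists take part in this difference was not tested.

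Sterol responsive genes carry sterol regulatory elements near their start sites, which bind the SREBP factors. The letters TCACNCCAC, searched on both strands of the RefSeq promoter window, which runs from upstream of the start site to just past it, occurred in 408 of 32851 RefSeq promoters (1.24%). Of the 12 measured cholesterol genes 9 had such a window, and the letters occurred in only 1 of them, Hmgcs1, the synthase that makes HMG-CoA, whose window is shown for that reason with the match in capitals.
Hmgcs1 (GRCm38.p6, chr13:119690101-119690400, plus strand): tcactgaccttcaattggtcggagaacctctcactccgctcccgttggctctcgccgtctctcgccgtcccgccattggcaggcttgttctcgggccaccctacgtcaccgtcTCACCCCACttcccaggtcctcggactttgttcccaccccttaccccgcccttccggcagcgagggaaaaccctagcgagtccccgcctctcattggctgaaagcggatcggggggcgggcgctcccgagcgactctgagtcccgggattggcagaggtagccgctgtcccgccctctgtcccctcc
Hmgcs1 itself read 10.78, 10.72 and 10.75 in the OPC lesions, 10.49, 9.54 and 9.47 in the low-DOX tumors and 10.09, 10.69 and 10.22 in the high-DOX tumors, and both P3 groups lay below all OPC lesions, by −0.92 ± 0.28 and −0.41.

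Genes that receptor tyrosine kinases switch on were also lower on average. The list described here holds inhibitors that restrain the signal and also other induced genes, such as Etv5, Fos, Egr1 and the cyclin Ccnd1. None of the 16 measured members of the receptor tyrosine kinase and MAPK feedback list was above 0 and the median was −0.71, while for the high-DOX tumors it was −0.02. There were 5 members wholly below the OPC lesions and 4 at an unadjusted p under 0.05. Spry4, a Sprouty inhibitor of the pathway, read 8.47, 8.47 and 9.24 in the OPC lesions and 6.61, 8.86 and 6.10 in the low-DOX tumors, a difference of −1.54 ± 0.74. Tumor 2 lay within the OPC range. It also had the highest Pdgfra of the low-DOX tumors, and whether these values are linked was not tested. Etv5, an ETS factor induced by ERK, read 8.40, 8.93 and 9.0 against 8.21, 8.05 and 7.09 without overlap (−1.0 ± 0.40, adjusted p of 0.494, limma). Spry2 read 8.64, 8.54 and 9.11 against 7.94, 8.45 and 6.95, also without overlap, and Ier3 differed by only −0.02, or by 0.10 with quantile normalization.

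**Figure D5:**
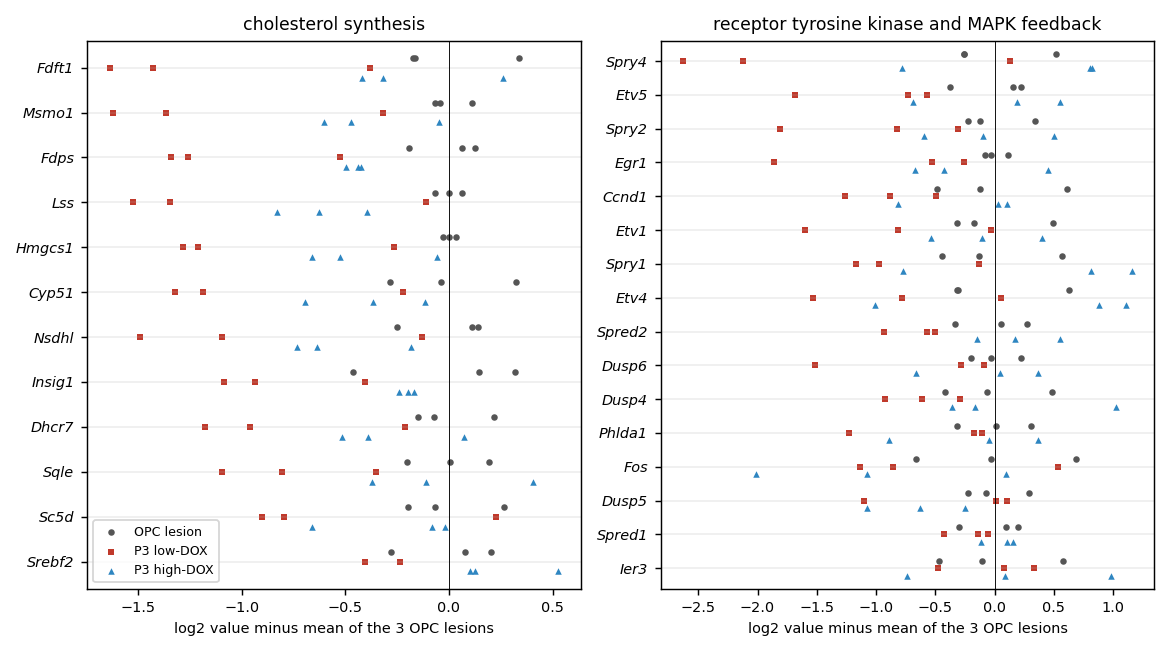
Members of the cholesterol synthesis list (left) and of the receptor tyrosine kinase and MAPK feedback list (right), ordered by difference, with each array as its log2 value minus the mean of the 3 OPC lesions (circles, OPC lesion; squares, P3 low-DOX; triangles, P3 high-DOX). The low-DOX mean is below the OPC mean in all 12 and all 16 genes (for Ier3 by only −0.02, and not with quantile normalization). In the cholesterol genes named in the text the low-DOX square nearest to 0 is tumor 1.

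The immediate early list, which shares Fos and Egr1 with the feedback list, had a median of −0.42 and 4 members wholly below the OPC lesions. Egr3, an activity induced zinc finger factor, read 8.21, 7.16 and 7.68 against 6.03, 6.70 and 5.70. Nr4a1, an orphan nuclear receptor, read 9.32, 9.31 and 9.45 against 7.68, 9.24 and 7.23, so tumor 2 was again near the OPC lesions. Among ligands and receptors of growth factors the median was 0.18. The probe set named for the mouse Pdgfa gene differed by 0.28 ± 0.27 with overlap. Igf1, insulin-like growth factor 1, which macrophages and microglia make, read 5.31, 6.66 and 4.41 in the OPC lesions and 7.36, 6.90 and 7.30 in the low-DOX tumors, higher by 1.73 ± 0.51 without overlap (adjusted p of 0.436, limma). Ntrk2, the receptor of brain-derived neurotrophic factor, was lower by 1.19.

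Proliferation genes overlapped between the groups in most cases. The median was −0.38 for 21 S phase genes, with 1 above 0, and −0.25 for 23 mitosis genes, with 5 above 0. The mitosis median was −0.74 without OPC lesion 1 and 0.09 without OPC lesion 3. Mki67, the proliferation marker, read 8.39, 9.96 and 10.35 in the OPC lesions and 8.91, 9.85 and 9.32 in the low-DOX tumors, a difference of −0.21 ± 0.66 (adjusted p of 0.934, limma). OPC lesion 1, the lesion with the most neuron RNA, was the lowest of the 6, and without it the S phase median was −0.85. Ccne1, cyclin E1, was the only S phase member wholly below the OPC lesions, by −0.78 ± 0.22. Among regulators of G1, Ccnd2, a D-type cyclin, read 10.48, 10.37 and 11.79 against 9.56, 9.78 and 9.67, lower by 1.21 without overlap. Ccnd1 was lower by 0.88, with the groups separated by only 0.0047. Cdkn2a, the locus of p16 and Arf, read 7.45, 7.16 and 9.09 against 8.51, 8.53 and 9.25 and differed by 0.86 ± 0.68.

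The p53 targets had a median of −0.13, with 9 of 41 wholly below the OPC lesions and 1 above. The list median was −0.31 with each array centred on its own median and −0.16 with quantile normalization. It was 0.0053 without OPC lesion 2 and −0.28 without OPC lesion 1. By the study's account p53 was lost in P3 cultures and not in OPC lesion cells. The part of p53 status in these values was not tested. Cdkn1a, the cell cycle inhibitor p21, read 8.89, 10.58 and 8.78 in the OPC lesions and 9.10, 7.78 and 7.47 in the low-DOX tumors, a difference of −1.30 ± 0.66 with overlap (adjusted p of 0.545, limma). Plk2, a Polo-like kinase that neuronal activity also induces, read 10.25, 8.78 and 10.02 against 7.45, 8.65 and 8.0, lower by 1.65 without overlap. Ano3, a membrane scramblase found in striatal neurons, had the largest difference, −3.67 ± 1.02, at 9.35, 6.66 and 7.82 against 4.07, 4.99 and 3.76. Ano3 and Plk2 are also neuronal genes, and their values stand beside the lower neuron lists. The high-DOX median was −0.23. Trp53 was not analysed here because no probe set names it alone.

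Energy genes were lower by small amounts. Of 19 respiratory chain genes 18 were below 0 (median −0.38) and 13 lay wholly below the OPC lesions. With each array centred on its own median the list median was −0.56, but this centring moved the median of all genes to −0.18. With quantile normalization the list median was −0.27. Cycs, cytochrome c, read 10.70, 10.58 and 10.22 against 10.10, 10.13 and 9.53, the largest difference of the list at −0.58, and Uqcrc2, a core subunit of complex III, differed by −0.54 ± 0.20. Hypoxia and glycolysis genes had a median of −0.34, and 6 of 19 lay wholly below. Slc2a3, the glucose transporter of neurons, read 8.88, 8.34 and 8.53 in the OPC lesions and 7.05, 6.36 and 6.18 in the low-DOX tumors, a difference of −2.06 ± 0.49 (adjusted p of 0.436, limma), and Pfkp, a phosphofructokinase, was lower by 1.23 without overlap. Adm, a vasodilator peptide induced by hypoxia, differed by −1.90 ± 0.88 with overlap.

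Stathmins and tubulins had a median of −0.32, with 1 of 20 above 0. Stmn1 encodes stathmin, a microtubule destabilizing protein. The study follows serine phosphorylation of this protein, which RNA values do not measure. Stmn1 read 6.96, 6.28 and 6.45 in the OPC lesions and 6.61, 6.54 and 6.08 in the low-DOX tumors. The high-DOX tumors read 6.46, 6.99 and 6.68. All 3 groups overlapped, and the difference was −0.15 ± 0.23 (adjusted p of 0.838, limma). Stmn3, a neuronal relative, read 11.18, 8.94 and 10.37 against 7.94, 8.41 and 7.70, lower by 2.15 without overlap. Tubb3, a neuronal tubulin, read 9.58, 9.32 and 9.09 against 8.65, 5.67 and 8.22, lower by 1.82 without overlap, and Stmn2, which is also in the neuron list, differed by −1.86 ± 1.84 with overlap.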

How the data were processed

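RNA of 9 lesions was hybridised to mouse 2.0 ST arrays. The authors normalized the signals by robust multichip average (RMA, version not given in the sources used here) and deposited log2 values. Their methods add a surrogate variable step, and whether the values precede it is not stated. The residuals around the 3 group means had rank 6. The values were used as deposited, without a filter. Of 41345 probe sets, 23521 name 1 gene in the platform annotation. For the 1082 genes with several, the brightest by its mean in the 9 arrays stood for the gene. Genes were fitted with limma 3.58.1 (R 4.3.3) and adjusted by Benjamini-Hochberg, after a test on simulated data. Lists got no set test. The rule for named genes took the 12 with the smallest p in each direction, the 3 largest differences of each list and 11 genes of the study. Any other gene was picked with its values in view. The comparison, lists and rules were chosen with earlier results of these data known. Replicate numbers in the titles did not pair the arrays. The number of arrays limits the precision. Alternatives were other scalings, filters, priors and weights, a replicate block, a residual component as covariate, the methods' t-test and leaving out arrays. Figures were drawn with matplotlib 3.10.9 (Python 3.11.15).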

Additional observations from a re-analysis of the deposited data

How the results depend on the processing

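No gene passed the adjusted threshold in the fit reported, nor with median centring, quantile normalization, the filter on low genes, means of probe sets, a trended or robust prior, only the 6 arrays compared, the replicate block or the methods' t-test (Benjamini-Hochberg adjusted). The smallest adjusted p was 0.308 with only the 6 arrays compared and 0.602 with the replicate block (limma). Array weights gave 8 higher and 10 lower genes, 17 of these 18 among the 24 with the smallest p. The first residual component as covariate gave 55 higher and 323 lower, and by its construction takes spread within groups out of the error. Leaving out an array gave between 0 and 1 higher genes and between 0 and 3 lower ones, all 3 of the latter (Chrm3, Mir9-2 and Gng3) and Id3 without OPC lesion 2, H2-Ea without low-DOX tumor 1 and Ms4a14 without low-DOX tumor 3. At an unadjusted p under 0.05 the higher and lower genes numbered 345 and 3089 with median centring, 2126 and 2684 with array weights, 603 and 799 by the methods' t-test, 743 and 932 with the replicate block, 2303 lower with the residual component, and from 498 to 1383 and from 638 to 1731 when an array was left out. The replicate numbers share no batch in the labels, and the deviations of same-numbered OPC and low-DOX arrays correlated by −0.09, −0.27 and −0.01.

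Median centring moved the list medians of neutrophil (−0.091), blood (−0.11), choroid plexus and ependyma (−0.091), brain proteoglycan and tenascin (−0.21), p53 target (−0.31), stathmin and microtubule (−0.50), respiratory chain (−0.56) and Hox genes (−0.077) by more than the spread between arrays. Median centring also moved the median of all genes to −0.18. Array weights moved the list medians of stathmin and microtubule (−0.49) and neural stem and progenitor genes (−0.30). The filter moved that of neutrophil genes (0.64). With an array left out, the medians ran from −1.76 to −0.36 for striatal neuron, −0.084 to 0.79 for endothelial, 0.13 to 0.47 for mural cell, −0.18 to 0.21 for proteoglycan and tenascin, −0.85 to −0.22 for S phase, −0.71 to −0.076 for hypoxia and glycolysis, −0.082 to 0.32 for growth factor and −0.52 to −0.22 for stathmin and microtubule genes.

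Signs turned for the named genes that follow. Arg1 was at 0.52 with array weights and between −1.77 and 1.07 with an array left out. Gfap was at 0.10 with quantile normalization, 0.22 with array weights and between −0.49 and 0.43 with an array left out. Ier3 was at 0.10, 0.074 and between −0.25 and 0.27, and Mir9-1 at 0.080, 0.070 and between −0.39 and 0.31, respectively. With an array left out the ranges were −0.13 to 0.0048 for Cd163, −0.23 to 2.91 for Jchain, −0.063 to 0.39 for Mir9-3, −0.80 to 0.19 for Mki67, −0.62 to 0.13 for P2ry12, −0.29 to 0.042 for Stmn1, and −0.30 to 1.17 for Hoxa2. The cause of these changes was not tested.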

Other observations

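Some lists were not described above. Of 18 apoptosis genes 14 were above 0 in the low-DOX tumors, with a median of 0.28. Birc3, an inhibitor of apoptosis that NF-kB induces, was higher by 0.86 ± 0.28, and Bcl2l11, the death protein Bim, by 1.16 ± 0.51, with overlap in both. Of 14 DNA damage and repair genes 3 were above 0, with a median of −0.35, and Blm, the Bloom syndrome helicase, differed by −0.73 ± 0.33.

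The brain proteoglycan and tenascin list had a median of −0.03, but its member Hapln4, a link protein of the matrix around neurons, read 8.83, 6.10 and 7.78 in the OPC lesions and 5.87, 4.83 and 5.04 in the low-DOX tumors, a difference of −2.33 ± 0.87 without overlap. The mural cell list had a median of 0.47, and Acta2, smooth muscle actin, read 6.49, 8.54 and 7.11 against 7.96, 8.33 and 11.14. As with collagen I, low-DOX tumor 3 held the highest value. The Hox list had a median of 0.10 with all list means under the array medians, and Hoxa2, a patterning gene of the hindbrain, read 6.77 in low-DOX tumor 2 and between 3.83 and 4.35 in the other 5 arrays compared.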
